A study of Homo sapiens with 12 samples.

Results

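The effect of gilteritinib alone on gene expression was examined in MV4-11 cells. This acute myeloid leukemia line carries an internal tandem duplication of *FLT3* (*FLT3*-ITD) and the KMT2A-AFF1 fusion. The comparison used the 3 libraries titled Gilteritinib and the 3 titled DMSO, 6 of the 12 RNA-sequencing libraries of the series, and was chosen by these titles. Gilteritinib cells received 25 nM of the drug and DMSO cells the solvent, each for 24 h. The other 6 libraries came from cells given 20 nM mitoxantrone alone (Mitoxantrone) or together with 20 nM gilteritinib (Com), also for 24 h. The labels name this drug mitoxantrone, and the series title and the study's methods name it as the liposomal form, mitoxantrone-liposome. The labels and methods do not say whether libraries of a group came from separate cultures, so p-values measure only the spread between these libraries. All libraries come from this 1 line.

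FLT3 is a receptor tyrosine kinase of early blood cells. The internal tandem duplication keeps the kinase active without its ligand, and the receptor then signals through STAT5, the RAS-ERK cascade and PI3K-AKT. STAT5 drives genes such as *PIM1*, *CISH* and the SOCS family, ERK drives *EGR1*, the *DUSP* phosphatases and the *SPRY* feedback inhibitors, and AKT keeps FOXO factors out of the nucleus. Gilteritinib binds the kinase domain of FLT3 and of AXL, and the transcripts of these pathways are the usual readout of FLT3 inhibition in leukemia cells.

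Values are FPKM, the fragments of a gene scaled by its length and by the library's total, and differences are Gilteritinib minus DMSO on the log2(FPKM + 1) scale, which understates the change of low genes. Of 43876 genes, 18574 reached an FPKM of 1 in at least 3 of the 12 libraries and were tested. Depth recovered from the FPKM values was 32973032 to 36159076 fragments in DMSO and 36801869 to 41330652 in Gilteritinib. Of 12 markers of the line, 10 reached an FPKM of 1 in each of the 6 libraries, with *FLT3* between 138 and 169 and *LYZ* between 490 and 1176. *CD68* was at 0.031 to 0.10 and *ITGAM* at 0.50 to 1.87. The summed FPKM of markers of T and NK, B, erythroid and stromal or epithelial cells was at most 15.8 in any library, and *CD3D*, *BLK* and *CDH1* were listed at 0 in all 6.

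Replicate 1 stood apart in both groups. The median chi-square between replicates 2 and 3, over genes with at least 50 fragments in the pair, was 1.07 in DMSO and 1.74 in Gilteritinib, whereas pairs with replicate 1 gave 6.85 to 8.84 and counting noise alone gives 0.455. Replicates 2 and 3 therefore differed by more than counting noise and were kept as separate libraries. Libraries with the same number deviated together from their group means (r = 0.539, 0.222 and 0.249 for numbers 1, 2 and 3, across genes, which are not independent), so each gene is also given as 3 same-numbered pairs. Below, a gene is called separated when the 3 libraries of one group all lie above the 3 of the other, and same-sign when all 3 pairs have the same direction.

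No gene passed an adjusted p of 0.05. In limma the smallest adjusted p was 1.0 (0.0% of 18574 genes called), and 0.901 after blocking on the replicate number (0.0% called). At an unadjusted p under 0.05, 105 genes were higher (0.565%) and 241 lower (1.3%). With the block these counts became 234 higher (1.26%) and 687 lower (3.7%). The middle of the distribution was narrow: the median difference was -0.025, and the 5th and 95th percentiles were -0.31 and 0.20, beside a median standard error of 0.152 (0.109 with the block).

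The pairs give another view. All 3 pairs were higher for 1766 genes (9.51%) and lower for 3077 (16.6%). The groups were separated with Gilteritinib above DMSO for 404 genes (2.18%) and below for 817 (4.4%). Separation is the most extreme order of 3 and 3 libraries, for which a two-sided exact permutation test of a single gene gives 0.1. Separation therefore does not by itself mark a gene as changed, and same-sign pairs were not tested. The excess of lower over higher genes was also present in the plain counts, with 11101 lower and 7473 higher means. The median of all genes was -0.062 in pair 1, 0.023 in pair 2 and -0.040 in pair 3, so the direction of the whole table differed between pairs. Scaling by median ratios moved the median to 0.0033 and the unadjusted counts to 153 higher and 208 lower, and quantile normalization gave 193 and 196. The share of higher calls thus depended on the scaling.

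*FLT3* itself was at 138, 165 and 169 FPKM in DMSO and at 155, 160 and 153 in Gilteritinib. The groups overlapped, with a difference of -0.01 ± 0.11 (SE). The sign became positive under median-ratio scaling. *AXL*, the other receptor that gilteritinib binds, was under 0.59 FPKM in all 6 libraries and was not tested. In the list of 30 receptor kinase genes, 19 were tested, 6 higher (31.6%, beside 40.2% of all genes) and 13 lower. The median was -0.02 (0.02 under median-ratio scaling). The member with separated groups was *CSF2RB*, the shared beta chain of the GM-CSF, IL-3 and IL-5 receptors. It was at 8.58, 8.36 and 8.07 in DMSO and at 7.80, 7.48 and 7.32 in Gilteritinib, a difference of -0.13 ± 0.13.

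The STAT5 targets had small differences with no common direction. Of 18 tested members, 8 were higher (44.4%, beside 40.2% of all genes) and 10 lower, and the median was -0.01 (0.03 under median-ratio scaling). *PIM1*, a survival kinase induced by STAT5, was at 18.5, 58.9 and 60.0 FPKM in DMSO and at 7.75, 63.1 and 66.2 in Gilteritinib. Replicate 1 was far lower in Gilteritinib, while replicates 2 and 3 were slightly higher, and the pair differences were -1.16, 0.10 and 0.14. *CISH*, a cytokine-inducible inhibitor of STAT5 signaling, was at 7.35, 10.9 and 10.5 in DMSO and at 5.49, 13.6 and 12.9 in Gilteritinib. It showed the same split, with -0.36 in pair 1 and 0.29 and 0.27 in pairs 2 and 3. *PIM2* was at 14.9, 26.2 and 25.1 in DMSO and at 12.95, 25.4 and 25.9 in Gilteritinib. *SOCS1* and *SOCS2*, feedback inhibitors of JAK signaling, were lower in all 3 pairs, as were *BCL2L1*, *CCND2* and *ID1* (5 of 18 members, 27.8% against 16.6% of all genes). *SOCS1* went from 1.62, 1.36 and 2.06 to 0.963, 1.16 and 1.73, and *SOCS2* from 8.35, 9.03 and 9.10 to 6.88, 8.56 and 8.87. The differences were -0.24 ± 0.16 and -0.12 ± 0.13, and the groups of *SOCS1* and of *SOCS2* overlapped.

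The promoter of *CISH* is shown because it was the matched promoter of the list with the STAT motif, TTCNNNGAA, which reads the same on both strands. The stretch covers chr3:50611848-50612024 (minus strand, GRCh38.p14, RefSeq), from position -250 to -74 from the start site, with the motif in capitals.
CISH: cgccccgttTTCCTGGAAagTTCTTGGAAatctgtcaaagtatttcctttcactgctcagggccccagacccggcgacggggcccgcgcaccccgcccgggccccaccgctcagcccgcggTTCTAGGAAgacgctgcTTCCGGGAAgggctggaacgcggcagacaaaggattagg
The motif occurred 4 times there. It was in 1 of 14 matched promoters of tested STAT5 targets (7.14%) and in 2152 of 27305 promoters of the same 300 bases (7.88%). A match describes letters and not a bound site.

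Of 30 tested genes of ERK output and the immediate early response, 9 were higher (30%, beside 40.2% of all genes) and 21 lower. In all 3 pairs 8 were lower (26.7%, beside 16.6% of all genes) and none higher. The median was -0.07, and -0.03 under median-ratio scaling and -0.02 under quantile normalization. By pair it was -0.14 and -0.16 in pairs 2 and 3 and 0.03 in pair 1. *JUND*, an AP-1 subunit, had the largest difference of the list. It was at 85.05, 106.5 and 132.9 FPKM in DMSO and at 68.5, 36.5 and 43.6 in Gilteritinib. The groups did not overlap, and the difference was -1.14 ± 0.28 (adjusted p 1.0 in limma and 0.913 with the block). The pair differences were -0.31, -1.52 and -1.59, so replicate 1 differed least, and the fit on replicates 2 and 3 alone gave an adjusted p of 0.0185. *EGR1*, the zinc finger factor read out most often for ERK activity, was at 10.4, 30.6 and 33.0 in DMSO and at 4.29, 26.0 and 26.3 in Gilteritinib. It was lower in every pair, but the gap between replicate 1 and the others exceeded the effect within pairs, the groups overlapped, and the difference was -0.55 ± 0.85. *JUNB* and *ZFP36*, named after their values were seen, were also lower in every pair. The pairs of *DUSP6* and those of *ETV5* differed in sign. *DUSP6* was at 5.84, 12.1 and 11.0 in DMSO and at 7.69, 11.3 and 11.0 in Gilteritinib, and *ETV5* at 3.43, 6.60 and 6.65 against 3.87, 6.15 and 6.40. *SPRY4* stayed under 0.79 FPKM and was not tested. *MYC* was at 84.95, 120.4 and 121.9 in DMSO and at 83.7, 131 and 138 in Gilteritinib, a difference of 0.09 ± 0.25.

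**Figure D1:**
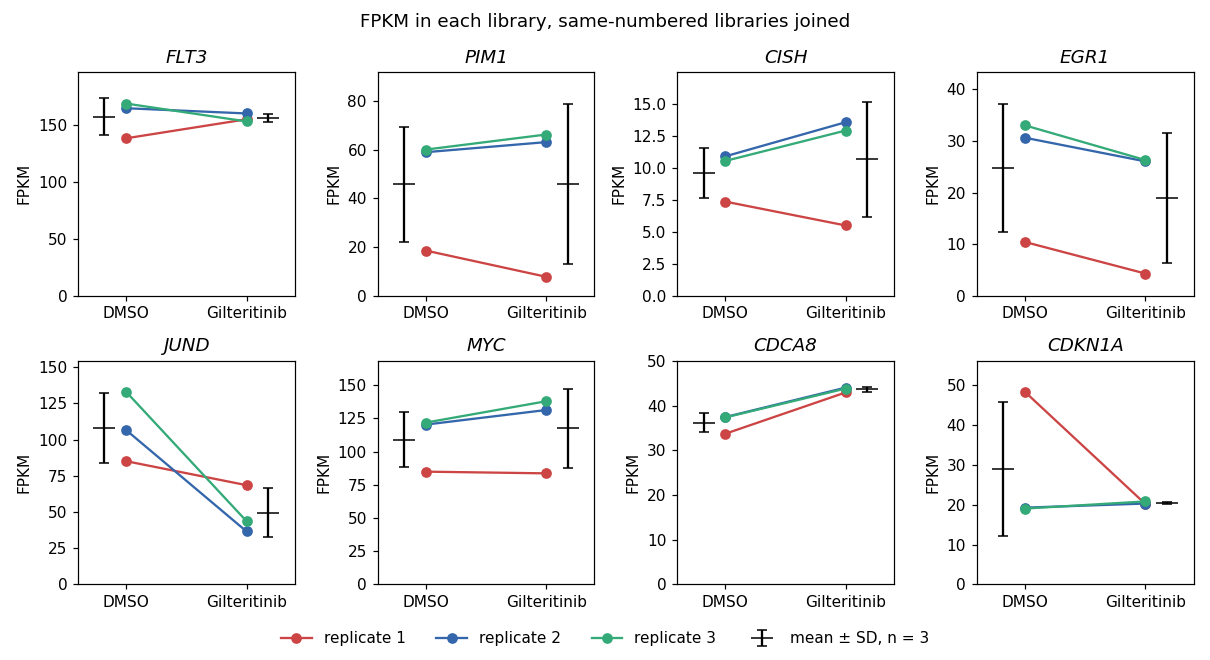
FPKM of 8 genes in the 3 DMSO and 3 Gilteritinib libraries, with same-numbered libraries joined by lines and the mean ± SD (n = 3) beside them in black. *PIM1*, *CISH* and *EGR1* differ more between replicate 1 and replicates 2 and 3 than between the groups, *JUND* and *CDCA8* have separated groups, and *CDKN1A* is high in DMSO replicate 1 alone.

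*CDKN1A*, which encodes the CDK inhibitor p21, was at 48.4, 19.3 and 19.1 FPKM in DMSO and at 20.2, 20.3 and 20.85 in Gilteritinib. DMSO replicate 1 stood far above the other 5 libraries of the comparison. Replicate 1 was also the highest in the other conditions, at 113 against 45.4 and 45.1 in Mitoxantrone and at 92.1 against 30.1 and 30.7 in Com, and in Gilteritinib it was not. The difference was -0.34 ± 0.49 with it and 0.09 without it, so the direction turned. This value calls for a reservation. For 18556 of 18574 tested genes (99.9%) a length exists at which the FPKM of all 12 libraries are whole numbers of fragments (within 0.03 of a fragment beside rounding). Of the 18 without such a length, 15 have over 100000 fragments on average or exceed the lengths searched, and *CDKN1A* and *AKT1* are among the others. For *CDKN1A*, DMSO replicate 1 is the single one of 12 values that was not whole (3954.19 fragments), and the cause was not tested. The groups were separated for *CD82* (11.5 ± 0.24 against 13.1 ± 0.24), a tetraspanin, and for *TNFRSF10B* (26.9 ± 1.0 against 29.4 ± 0.68), a death receptor for TRAIL. The proapoptotic BH3-only genes *BBC3* and *PMAIP1* had a lower mean in Gilteritinib, with overlapping groups for *PMAIP1* and for *BBC3*.

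Genes of G2 and mitosis were higher. Of 39 tested members, 37 had a higher mean in Gilteritinib and 2 a lower one, beside 40.2% higher over all genes, and 20 were higher in all 3 pairs (51.3% against 9.51% of all genes) and none lower. The sizes were small. The median was 0.08, 0.15 in pair 1, 0.07 in pair 2 and 0.04 in pair 3, and it stayed between 0.08 and 0.12 under both other scalings. *CDCA8*, a subunit of the chromosomal passenger complex, was at 33.7, 37.4 and 37.4 FPKM in DMSO and at 42.96, 44.04 and 43.83 in Gilteritinib, a difference of 0.26 ± 0.11. Its groups did not overlap, nor did those of *PLK1*, the polo-like kinase (26.7, 28.6 and 30.6 against 31.6, 31.7 and 32.5). *AURKB*, the kinase of the same complex, was at 35.2, 40.2 and 39.6 in DMSO and at 41.2, 47.8 and 44.9 in Gilteritinib (0.21 ± 0.14). *HMMR*, a spindle protein, was at 51.4, 49.1 and 50.5 against 66.7, 51.7 and 51.7, and most of its difference of 0.16 ± 0.09 came from replicate 1. *CCNB1* and *AURKA*, named after their values were seen, were higher in all pairs by 0.15 to 0.18 on the log2 scale. *MKI67* and *PRC1* were the 2 members with a lower mean. *TUBB4B*, a tubulin, and *JPT1*, neither of them a member, were named by rule among the separated higher genes, ranked by p in the blocked fit. Their unadjusted p in that limma fit was 0.0071 and 0.0061, and the adjusted p was 0.91 for each. *TUBB4B* was at 126.5, 132 and 130 in DMSO and at 144, 156 and 159 in Gilteritinib.

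Mitotic genes are known to share promoter elements, the cell cycle homology region (CHR, TTTGAA) bound by the MuvB complex and CCAAT boxes bound by NF-Y. CHR letters were in 21 of 31 matched promoters of the list (67.7%) and in 15.4% of all promoters, and CCAAT in 25 of 31 (80.6%) and 35.7%, on either strand. The promoters of *CDCA8* and *HMMR*, both with separated groups, are shown up to the base before the start site with these letters in capitals, at chr1:37692371-37692515 and chr5:163460425-163460631 (plus strand, GRCh38.p14, RefSeq). In *CDCA8* the CHR overlaps a CCAAT box read on the other strand.
CDCA8: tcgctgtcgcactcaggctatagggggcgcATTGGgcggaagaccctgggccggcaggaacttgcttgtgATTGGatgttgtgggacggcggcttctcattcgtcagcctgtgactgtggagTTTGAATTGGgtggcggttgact
HMMR: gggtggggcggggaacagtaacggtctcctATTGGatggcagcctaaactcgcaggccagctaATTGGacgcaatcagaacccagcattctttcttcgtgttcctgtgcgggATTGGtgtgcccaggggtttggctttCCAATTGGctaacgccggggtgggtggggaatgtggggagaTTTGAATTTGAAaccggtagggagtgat

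DNA replication genes lay on the same side with smaller values. Of 49 tested, 32 were higher (65.3%, beside 40.2% of all genes) and 17 lower, 13 were higher (26.5%, beside 9.51%) and 4 lower in all pairs, and the median was 0.04. The separated members were *RPA3*, a subunit of the single-strand binding complex (20.1 ± 1.16 against 22.2 ± 0.80), *POLE3*, a histone-fold subunit of DNA polymerase epsilon (59.9 ± 1.44 against 65.3 ± 1.72), and *GINS1*, part of the replicative helicase (21.7 ± 0.39 against 23.3 ± 0.52). G1 and S phase regulators had no common direction, with 14 of 30 higher and 16 lower. *CDK2* was at 20.8 ± 3.04 in DMSO and 21.2 ± 1.60 in Gilteritinib, *CCNA2* at 70.0 ± 3.72 and 70.7 ± 10.6, *CCND3* at 60.7 ± 16.3 and 65.9 ± 20.8, *CCND2* at 10.8 ± 3.76 and 9.80 ± 3.90, and *CDKN1B*, the p27 inhibitor, at 48.5 ± 3.19 and 46.5 ± 3.68. In each of these the groups overlapped. *CCNA1*, the germline and leukemia A-type cyclin, was at 23.2, 19.1 and 20.0 in DMSO and at 30.3, 24.5 and 23.6 in Gilteritinib (0.31 ± 0.15) with separated groups. *RBL2*, the p130 pocket protein of quiescence, was at 29.3, 30.1 and 30.3 against 28.8, 28.4 and 27.2 (-0.08 ± 0.06).

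Genes of ATF4 and amino acid supply were lower. ATF4 is the factor of the amino acid response and turns on transporters, serine and asparagine synthesis and tRNA synthetases. Of 43 tested members, 40 had a lower mean in Gilteritinib, beside 59.8% of all genes, and 23 were lower in all 3 pairs (53.5% against 16.6%) with none higher. The median was -0.09, and -0.08, -0.11 and -0.09 in the 3 pairs, so this list held its direction within each pair. It was -0.06 and -0.07 under the other scalings. No member had separated groups. The examples here were chosen after their values were seen. *ALDH1L2*, a mitochondrial folate enzyme, was at 8.11, 14.4 and 13.7 FPKM in DMSO and at 5.88, 9.84 and 9.98 in Gilteritinib, with pair differences of -0.41, -0.50 and -0.42. *PHGDH*, the first enzyme of serine synthesis, was at 12.1, 28.5 and 28.9 against 10.4, 20.9 and 20.6. *SLC1A5*, a glutamine transporter, was at 65.7, 108 and 102 against 58.6, 87.6 and 86.2. Each was lower within each pair, and in each replicate 1 lay below replicates 2 and 3 in both groups. The fitted differences were -0.44 ± 0.38 for *ALDH1L2*, -0.37 ± 0.60 for *PHGDH* and -0.24 ± 0.26 for *SLC1A5*. *ATF4* itself was at 81.6, 145 and 142 in DMSO and at 80.3, 144 and 154 in Gilteritinib. *DDIT4*, an mTORC1 inhibitor, split by pair, at 1.82 against 2.13 in replicate 1 and at 11.2 and 10.9 against 5.09 and 5.27 in replicates 2 and 3. With replicates 2 and 3 alone its adjusted p was 0.00453.

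The C/EBP-ATF composite element bound by ATF4 reads TGATGNAA on either strand. These letters were in 13 of 36 matched promoters of the list (36.1%) and in 3.67% of all promoters. Shown are *MTHFD1L* (chr6:150866327-150866394, plus strand), lower in all 3 pairs, and *ASNS* (chr7:97872439-97872506, minus strand), in which the pairs differed in sign at -0.33, 0.13 and -0.07, both from GRCh38.p14 in RefSeq with the letters in capitals.
MTHFD1L: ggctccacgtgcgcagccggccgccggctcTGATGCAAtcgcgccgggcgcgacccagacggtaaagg
ASNS: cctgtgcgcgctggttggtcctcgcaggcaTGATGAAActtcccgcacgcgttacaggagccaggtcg

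In the list of *HOXA* genes, *MEIS1* and partners of KMT2A, 3 of 16 tested were higher (18.8%, beside 40.2% of all genes) and 13 lower, with a median of -0.09. In all pairs 6 were lower (37.5%, beside 16.6%) and 2 higher (12.5%, beside 9.51%). *DOT1L*, the H3K79 methyltransferase recruited by KMT2A fusions, was at 21.4, 23.9 and 27.2 FPKM in DMSO and at 18.2, 20.1 and 20.0 in Gilteritinib, a difference of -0.29 ± 0.12. *MEN1*, the cofactor menin, was at 11.5 ± 0.53 against 10.6 ± 0.37, and *AFF1*, the fusion partner in this line, at 35.9 ± 1.44 against 34.0 ± 0.83, and these 3 were the separated members. *MEIS1* was at 35.8, 38.6 and 38.8 against 32.9, 40.2 and 39.4. *HOXA9* was higher in pair 1 and lower in pairs 2 and 3, at 15.7, 22.99 and 22.2 against 16.7, 16.4 and 17.1. Reads of the fusion and of normal *AFF1* or *KMT2A* are not told apart in gene values.

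Of 21 tested myeloid transcription factors, 15 were lower and 6 higher (28.6%, beside 40.2% of all genes), 9 were lower in all pairs (42.9%, beside 16.6%) with none higher, and the median was -0.11. *SPI1*, which encodes PU.1, was at 90.2 ± 16.05 in DMSO and at 79.5, 63.6 and 63.2 in Gilteritinib, with overlapping groups. *ZEB2* was the separated member, at 168 ± 2.83 against 159 ± 6.22, with almost no difference in pair 3. Myeloid differentiation genes lay on the other side, 27 of 32 higher (84.4%) with a median of 0.09, and 10 were higher in all pairs (31.2%, beside 9.51% of all genes) and 1, *ELANE*, lower. The size was mostly that of pair 1, at 0.19, against 0.02 and 0.07 in pairs 2 and 3. *LYZ*, the secreted lysozyme of monocytes, was at 686.5, 506 and 490 in DMSO and at 1176, 539 and 560 in Gilteritinib. Gilteritinib replicate 1 was the outlying library, and pairs 2 and 3 differed by 0.09 and 0.19. *CTSG*, a granule protease, behaved alike, at 71.1, 54.6 and 54.1 against 96.3, 59.2 and 60.8.

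Highly expressed housekeeping classes were slightly higher. Of 75 tested cytosolic ribosomal protein genes, 63 were higher, with a median of 0.07. This is 84%, beside 40.2% of all genes and 63.6% of genes with a mean FPKM of 50 and over. In all pairs 25 were higher (33.3%, beside 9.51% and 24.4%) and 1 lower. Under quantile normalization 49 were higher and 26 lower with a median of 0.02, and under median-ratio scaling the median was 0.10. In Com against Mitoxantrone 27 of the 75 were higher, beside 40.5% of all genes, with a median of -0.01. The separated members were *RPL21* (696 ± 11.6 against 758 ± 24.5), *RPLP1* (314 ± 15.3 against 338 ± 9.14) and *RPS27A* (384.5 ± 11.5 against 402.8 ± 12.04). *RPL13* went far to the other side in 2 pairs, at 443, 545 and 534 in DMSO and at 495, 278 and 306 in Gilteritinib. Ribosomal protein genes have many processed pseudogenes, and fragments shared with them could be split by the counting. Of 71 nuclear respiratory chain subunits, 51 were higher, with a median of 0.07. This is 71.8%, beside 40.2% of all genes and 63.6% of genes with a mean FPKM of 50 and over. In all pairs 24 were higher (33.8%, beside 9.51% and 24.4%) and none lower. Of the 71, 8 were separated with Gilteritinib above, beside 404 of 18574 genes (2.18%) and 60 of the 1155 with a mean FPKM of 50 and over. They included *UQCRQ* of complex III (53.1, 52.7 and 45.98 against 55.03, 57.7 and 61.2), *COX7B* of complex IV (48.6 ± 1.97 against 55.0 ± 2.32) and *ATP5F1E* of ATP synthase (25.3 ± 0.20 against 28.7 ± 1.399). The 1155 genes with a mean FPKM of 50 and over had a median of 0.03. Those between 5 and 50 had -0.02, and those under 5 had -0.04. In the same order the medians were 0.07, 0.01 and -0.02 under median-ratio scaling and 0.013, 0.009 and 0.008 under quantile normalization. Level and direction thus moved together over the whole table, except that under quantile normalization the medians hardly differed. The part of level in these lists was not tested. The 13 mitochondrially encoded genes of the same complexes all had a lower mean, with a median of -0.26, but this came from pair 1 alone. The pair medians were -1.09, 0.21 and 0.09. *MT-ND4* was at 955, 933 and 1236 in DMSO and at 394, 1077 and 1211 in Gilteritinib.

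No gene of the BCL2 family had separated groups. *BCL2* was at 96.3 ± 8.63 in DMSO and 91.0 ± 6.10 in Gilteritinib, *MCL1* at 55.4 ± 3.93 and 55.1 ± 1.53, *BCL2L1* at 3.60 ± 0.83 and 3.08 ± 0.42, and *BCL2L11*, which encodes BIM, at 15.4 ± 1.97 and 14.3 ± 3.67. The median of 15 BCL2 family genes was -0.08, with 12 lower and 3 higher (20%, beside 40.2% of all genes). *AKT1* was at 18.5, 19.0 and 18.7 in DMSO and at 16.4, 19.7 and 15.2 in Gilteritinib. Which of its values were whole depended on the length. At 31667 bases, the length that gave most whole values, it was whole in 10 of 12 libraries. DMSO replicate 3 and Mitoxantrone replicate 2 were not whole there, and this length exceeds the exon length of 11162. At 8396 bases 8 were whole, and DMSO replicate 1, Gilteritinib replicate 3 and Com replicates 2 and 3 were not. *AKT2* was at 27.8 ± 0.80 against 28.9 ± 1.78, higher in all pairs by 0.02 to 0.12. Among 30 core genes of the PI3K-AKT pathway, 11 were higher (36.7%, beside 40.2% of all genes) and 19 lower with a median of -0.03. The separated ones, all lower and none past the adjusted threshold, were *AKT1S1*, an mTORC1 inhibitor phosphorylated by AKT (10.8 ± 0.62 against 9.83 ± 0.042), *PIK3R5*, a regulatory subunit of PI3K gamma (21.4 ± 0.38 against 19.8 ± 0.80), and *GSK3B* (26.0 ± 0.23 against 24.7 ± 1.09), with differences of -0.12 ± 0.12, -0.11 ± 0.16 and -0.07 ± 0.06 (SE). Of 26 FOXO targets, 9 were higher (34.6%, beside 40.2% of all genes) and 17 lower (median -0.05), with *BNIP3* separated at 7.94 ± 0.67 against 6.86 ± 0.28.

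The remaining lists had medians near that of all genes. Over all genes 40.2% had a higher mean. The medians of the G1 and S, PI3K-AKT, MYC and NF-kB lists, all within 0.03 of 0, were positive under median-ratio scaling. Glucose use genes were higher in 18 and lower in 15 cases, with the glycolytic enzymes *PKM* (209 ± 8.41 against 227 ± 9.60) and *PGK1* (105 ± 1.52 against 111 ± 3.04) separated and higher and *PDK1*, which inhibits pyruvate dehydrogenase, separated and lower (3.86, 4.29 and 4.37 against 3.53, 3.505 and 3.405). Cholesterol and fatty acid synthesis genes were higher in 12 and lower in 26, with a median of -0.15 in pair 1 and 0.01 and 0.02 in pairs 2 and 3, and the sterol isomerase *EBP* was separated and higher at 12.6 ± 0.57 against 13.8 ± 0.39, and lanosterol synthase, *LSS*, separated and lower at 2.91, 2.54 and 2.57 against 1.90, 2.325 and 2.125. MYC and ribosome biogenesis genes split by pair in the same way, at -0.16, 0.06 and 0.08. Interferon-stimulated genes were higher in 12 and lower in 10, with *IFI35* at 3.78, 5.50 and 4.997 against 5.54, 6.09 and 6.33. Antigen presentation genes were higher in 6 and lower in 5, with the immunoproteasome subunit *PSMB10* at 34.8 ± 1.18 against 37.4 ± 1.05. NF-kB and cytokine genes were higher in 5 and lower in 13 (median -0.02), and lysosome and autophagy genes higher in 22 and lower in 20, with the proton pump subunit *ATP6V0D1* at 20.9 ± 1.60 against 24.0 ± 1.35 and the autophagosome protein *GABARAP* at 2.17, 2.22 and 2.32 against 1.89, 1.38 and 1.28. *PDK1*, *LSS*, *GABARAP*, *PLK1*, *BBC3*, *PMAIP1*, *ID1*, *MEIS1*, *HOXA9*, *SPI1*, *ELANE*, *LYZ*, *CTSG*, *RPL13* and *MT-ND4* are not among the genes named by rule and were chosen after their values were seen.

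**Figure D2:**
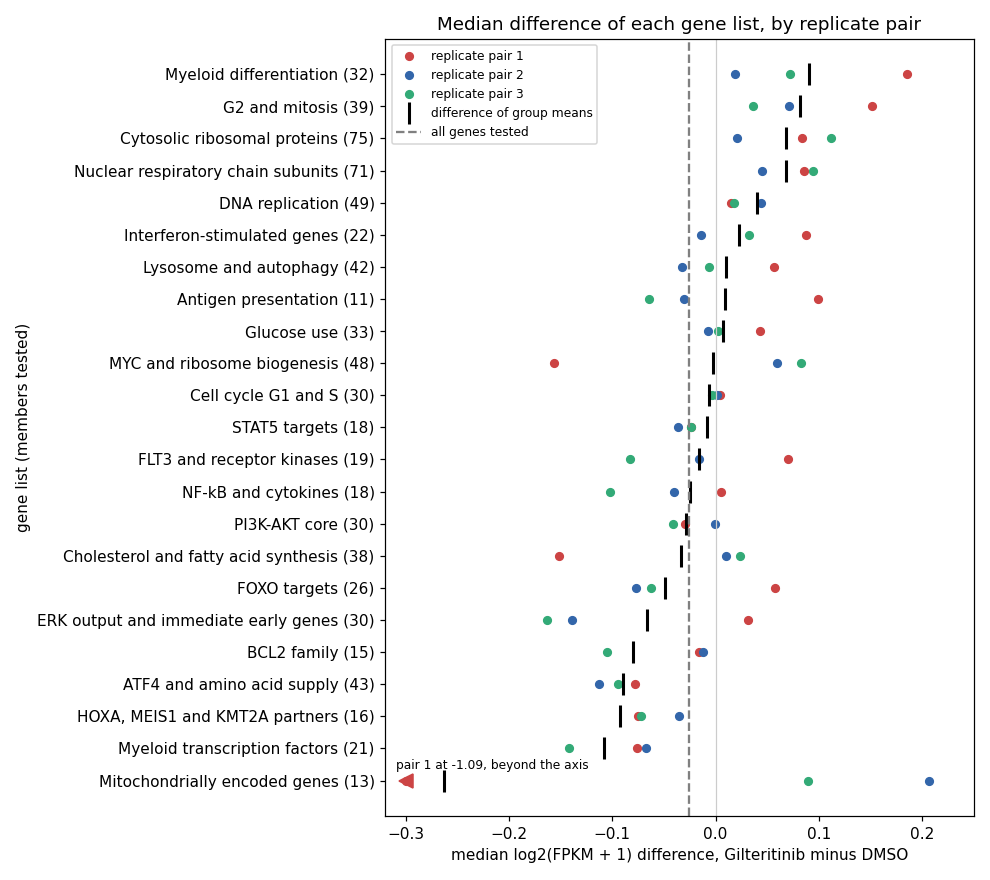
Median log2(FPKM + 1) difference of Gilteritinib minus DMSO for 23 gene lists, as the difference of group means (black) and in each replicate pair (colored); the dashed line is the median of all genes tested, -0.025. The ATF4, HOXA and myeloid transcription factor lists lie left of this line in all 3 pairs. The mitosis, ribosomal protein and respiratory chain lists lie right of it in all 3 pairs. The line is of group means, and the medians of all genes in pairs 1, 2 and 3 were -0.062, 0.023 and -0.040. In pair 2 the ribosomal protein list, at 0.021, was not above all genes, and in pair 1 the HOXA list was at -0.075.

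Over the whole table, the separated genes with the smallest unadjusted p in the blocked fit were small in effect or low in count. Among those higher, *CERK*, ceramide kinase, was at 23.1, 21.8 and 21.8 FPKM in DMSO and at 28.0, 24.4 and 24.1 in Gilteritinib. *PLEKHO2* was at 5.85 ± 0.71 against 7.63 ± 0.98, *CLP1*, an RNA kinase of tRNA and mRNA 3′ processing, at 11.8 ± 0.61 against 13.7 ± 0.31, *UQCC4*, a complex III assembly factor, at 14.8 ± 0.32 against 16.8 ± 0.93, *JPT1* at 22.97 ± 1.27 against 27.1 ± 0.54, and the linker histone *H1-1* at 5.57 ± 0.68 against 8.12 ± 1.496. Among those lower, *RNF144A*, a ubiquitin ligase, was at 16.3, 17.3 and 17.1 in DMSO and at 12.65, 13.99 and 14.45 in Gilteritinib, a difference of -0.29 ± 0.07 with pairs at -0.34, -0.29 and -0.23. *CLDND1*, a claudin-domain membrane protein, was at 17.5, 15.5 and 15.8 against 14.1, 12.2 and 12.6, with pairs at -0.29, -0.32 and -0.31. *MCEE*, methylmalonyl-CoA epimerase, was at 14.5 ± 0.70 against 11.6 ± 1.76. *NAF1*, an assembly factor of H/ACA particles including telomerase, was at 15.8, 15.7 and 15.3 against 13.5, 13.2 and 13.2. The antisense gene ENSG00000250027 overlaps an exon of *NAF1* and was also lower, at 5.15 ± 0.89 against 3.51 ± 0.40, and since strand-specific counting is not stated in the sources used here, reads of the 2 genes may not be told apart. *NADK2-AS1* was at 6.72 ± 0.18 against 5.24 ± 0.35.

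The other leading genes encode short RNAs, most of them inside introns of other genes, with few fragments. Their mature sequences are shown for the microRNA genes with an entry in RefSeq (GRCh38.p14), with the seed, bases 2 to 8, in capitals. No seed is shared. The libraries measured fragments at the gene, and not mature microRNA.
hsa-miR-7976: uGCCCUGAgacuuuugcuc
hsa-miR-6835-5p: aGGGGGUAgaaaguggcugaag
hsa-miR-6835-3p: aAAAGCACuuuucugucucccag
hsa-miR-4505: aGGCUGGGcugggacgga

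*MIR6835*, in an intron of *HMGA1* (chr6:34240673-34240736, plus strand), was at 3.04, 3.02 and 4.26 FPKM in DMSO and at 6.43, 8.92 and 6.60 in Gilteritinib, which is 7 to 21 fragments a library. *MIR7976*, in an intron of *TPRA1* (chr3:127587111-127587176, minus strand), was at 10.5, 9.22 and 8.73 against 13.2, 16.1 and 11.6, with 19 to 39 fragments. *MIR4505*, antisense within an intron of *ELMSAN1* (chr14:73758747-73758819, plus strand), was at 12.2, 14.4 and 16.6 against 10.3, 5.21 and 6.51, with 14 to 40 fragments and a mean counting error of 2.37 FPKM in DMSO, beside an SD of 2.23. *MIR378E*, in an intron of *DOCK2* (chr5:170028488-170028566, plus strand), was at 27.8, 28.4 and 26.1 against 15.01, 11.35 and 19.4. Entries of the snRNA class, all with pseudogene symbols, were *RNU4-4P* (5.68 ± 0.87 against 8.37 ± 1.67), *RNU4ATAC11P* (6.33 ± 0.83 against 2.74 ± 0.58), *RNU6-780P* (10.8 ± 2.65 against 6.75 ± 1.65) and *RNU1-73P* (10.3 ± 1.03 against 7.49 ± 1.396). They had 10 to 67 fragments a library. A Y RNA gene in an intron of *LRRC59* (ENSG00000206824) was at 4.96 ± 0.80 against 8.19 ± 2.02. The snRNA and Y RNA entries belong to families of near-identical copies, whose fragments the counting could split. For short genes the counting error could reach the SD of the 3 libraries. For *MIR6835* it was 1.24 FPKM in DMSO and 1.72 in Gilteritinib, beside SDs of 0.71 and 1.39. For *RNU6-780P* it was 1.71 and 1.29, below the SDs. Over all genes named by rule, long ones included, the SD was smaller than the counting error in 28 of 152 group means. The snoRNA gene ENSG00000238685 passed the threshold when Gilteritinib replicate 2 was left out, with adjusted p 0.00194, at 3.06, 2.83 and 3.34 against 0.381, 2.14 and 0.208 and between 1 and 14 fragments a library. A 5.8S ribosomal RNA gene (ENSG00000277739) spread from 3.62 to 343 within DMSO.

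By class of RNA, the median difference was -0.02 for 10506 protein-coding genes, -0.05 for long non-coding genes, -0.04 for pseudogenes, -0.04 for microRNA genes, -0.04 for snRNA genes and 0.02 for snoRNA and scaRNA genes. Within pairs the short and non-coding classes swung together, with snRNA genes at -0.17, 0.16 and -0.05 and microRNA genes at -0.15, 0.18 and -0.07, against -0.02, 0.0004 and -0.03 for protein-coding genes. The class medians thus differed more between pairs than from 0 in the group means.

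With replicates 2 and 3 alone, 114 genes passed an adjusted p of 0.05 in limma (0.614% of 18574), 108 lower and 6 higher in Gilteritinib. Replicates 2 and 3 of a group were closer to each other than to replicate 1, and this fit leaves replicate 1 out of every group. The examples were chosen after their values were seen. *CLEC11A*, a secreted growth factor of hematopoietic cells, was at 303, 259 and 267 FPKM in DMSO and at 330, 106 and 114 in Gilteritinib. *PITX1* was at 195, 197 and 218 against 211, 115 and 122, and *CDKN2A*, which encodes p16 and ARF, at 38.3, 39.6 and 39.9 against 38.55, 23.8 and 23.3. *TMEM160* was at 34.95, 24.02 and 37.55 against 38.9, 0.913 and 1.37. In replicate 1 the 4 lower examples were close to DMSO. The median over the 108 was 0.03 in pair 1 and -0.76 and -0.75 in pairs 2 and 3. In pair 1, 44 of the 108 were lower, beside 11721 of all 18574 genes, whose median there was -0.062. The 108 were thus lower less often in pair 1 than all genes. The 6 higher ones included *DNAJA1*, an HSP40 cochaperone, at 78.4, 68.1 and 65.5 against 77.05, 82.35 and 81.84, and the histone gene *H3C1*, at 168, 128 and 127 against 211, 152 and 159.

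The 108 genes had a high GC content. The median over 105 of them with a transcript in GENCODE 29 (97.2%) was 61.2%, against 46.8% over all tested genes. Among protein-coding genes sorted by GC content into 10 bins of equal size, the highest bin had a median of -0.09 and -0.15 in pairs 2 and 3 and -0.03 in pair 1, while the other bins lay between -0.05 and 0.03. The same genes were also low in other libraries. Their mean log2(FPKM + 1) was 4.29, 4.40 and 4.48 in DMSO, 4.30, 3.38 and 3.45 in Gilteritinib, 4.45, 3.59 and 3.50 in Mitoxantrone and 4.39, 3.98 and 4.04 in Com. Com thus lay above Mitoxantrone in replicates 2 and 3 for the genes that lay below DMSO in Gilteritinib. Of the 108, 82 were higher in Com than in Mitoxantrone, beside 40.5% of all genes. *JUND* (69.7% GC) and *RPL13* are among the 108. The part of GC content in these differences was not tested.

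Com against Mitoxantrone gives gilteritinib at 20 nM on top of 20 nM mitoxantrone-liposome, and it shares no library with Gilteritinib against DMSO at 25 nM. The dose and the partner drug differ, so the values are set side by side without a test. No gene named by rule had an adjusted p under 0.05 for Com against Mitoxantrone or for the difference between the comparisons. *EGR1* was lower by -1.16 there and -0.55 here, and *PIM1* by -1.02 and -0.31. *CISH* was at -0.62 there and 0.07 here, *PIM2* at -0.48 and -0.06, and *BCL2L11* at -0.45 and -0.13. For these 5 genes all 3 pairs were lower in Com. Of the STAT5 list 17 of 18 were lower there (median -0.19) against 10 of 18 here (-0.01), and of the ERK list 28 of 30 (median -0.38) against 21 of 30 (-0.07). Over all genes 59.5% were lower there (median -0.036) and 59.8% here (-0.025). The STAT5 share here was thus not above that of all genes. Cholesterol and fatty acid synthesis had a median of -0.38 there and -0.03 here. Some lists had the same side in both: G2 and mitosis with 38 of 39 higher (0.14), DNA replication with 48 of 49 higher (0.18) and ATF4 and amino acid supply with 37 of 43 lower (-0.11). The HOXA and KMT2A list was at 0.03 there and at -0.09 here. The myeloid differentiation list was at -0.04 there, near the -0.036 of all genes, with 15 higher and 17 lower, and at 0.09 here.

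Of the 404 genes separated and higher in Gilteritinib, 229 (56.7%) were also higher in Com than in Mitoxantrone, beside 40.5% of all genes. Of the 817 separated and lower, 499 (61.1%) were lower in Com, beside 59.5% of all genes. *CLDND1* and *RNF144A* were lower in both by like amounts, at -0.25 and -0.29 in Com, whereas *JUND* was at 0.34.

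**Figure D3:**
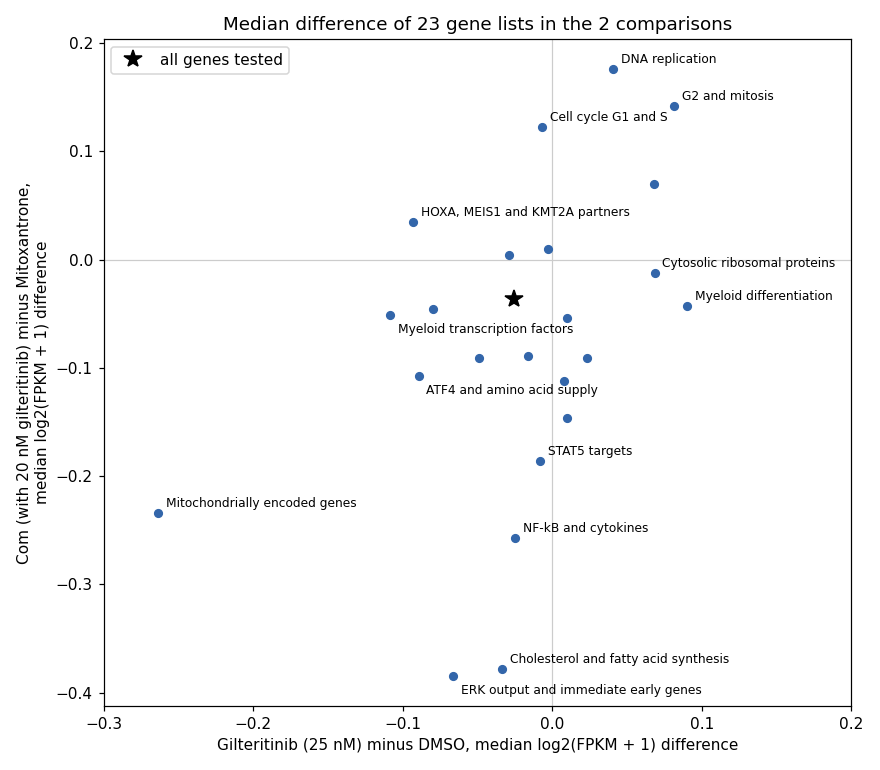
Median log2(FPKM + 1) difference of 23 gene lists in Gilteritinib minus DMSO (x axis, 25 nM gilteritinib) and in Com minus Mitoxantrone (y axis, 20 nM gilteritinib on top of mitoxantrone-liposome), with all genes as a star. The STAT5 and ERK lists lie at -0.19 and -0.38 on the y axis and at -0.01 and -0.07 on the x axis, and G2 and mitosis and DNA replication are above 0 on both.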

How the data were processed

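Total RNA of MV4-11 cells was reverse-transcribed and amplified by the Geo-seq method, and libraries were made with a transposase kit, per the labels. The deposited values are FPKM per human Ensembl gene, and the authors' files hold no counts. The submitters' processing notes name Bowtie 0.12.9, Cufflinks 2.1.1, HTSeq and DESeq2 and the mouse build mm10, although the identifiers are human; the human build is not given in the sources used here. Symbols were found for 41461 of 43876 identifiers, and 40169 are in GENCODE 29.

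Genes reaching an FPKM of 1 in 3 or more of the 12 libraries were tested in limma 3.58.1 (R 4.3.3), two-sided, on log2(FPKM + 1) with a mean-variance trend, all 12 libraries and 1 mean per condition, with Benjamini-Hochberg adjustment. Whole fragments were recovered for 99.9% of tested genes by finding a length that makes all 12 values whole, and were fitted with voom as an alternative added after the data were seen. Same-numbered libraries deviated together in all 18 pairs (r from 0.165 to 0.657), so blocking on the replicate number was an alternative. Counting errors cover counting only; removal of PCR copies is not stated in the sources used here. Code was tested on simulated data.

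The comparison, the gene lists and the tests were chosen with earlier results of these data known. Genes were named by rule: 25 fixed names; per list, up to 3 separated members each way with a mean FPKM of at least 5, by size; over all genes, up to 12 separated genes each way by the smallest p of the blocked fit; and genes passing an adjusted p of 0.05 in any fit, except that the 114 of replicates 2 and 3 alone are given as a group with examples. The motifs CHR, CCAAT and C/EBP-ATF were added after the data were seen. Promoters and mature microRNAs are RefSeq sequences (GRCh38.p14). Without the filter on low values, 2 genes passed, both listed at 0 in all libraries of 1 group, and were left out. Figures use matplotlib 3.10.9. Some items, and a gene list that needs them, are not reported here.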

Additional observations from a re-analysis of the deposited data

Results flagged for a closer look

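For 10 named genes, all 3 replicate pairs had one direction in Gilteritinib against DMSO and the opposite one in Com against Mitoxantrone. The gap between the comparisons, Com minus Mitoxantrone less Gilteritinib minus DMSO on the log2(FPKM + 1) scale, was -1.23 for the Y RNA gene in *LRRC59*, -0.551 for *CD82*, -0.50 for *PLEKHO2*, -0.385 for *UQCC4*, -0.344 for *TNFRSF10B*, -0.259 for *PKM* and -0.15 for *AKT2*. It was 0.567 for ENSG00000250027, 0.164 for *AFF1* and 0.111 for *ZEB2*. In limma's test of the difference itself, none of the 10 had an adjusted p under 0.05, with or without the replicate block. The comparisons differ in the dose of gilteritinib and in the partner drug. Single outlying values within groups of 3 libraries were not part of this flagging, and those of *CDKN1A* and *LYZ* are described above.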

How the results depend on the processing

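The count of genes at an adjusted p under 0.05 was 0 in the fit reported and became 2 without a filter on low values, 114 with replicate numbers 2 and 3 only and 1 with voom and the replicate block; leaving out each library gave 0 to 1. At an unadjusted p under 0.05 the count was 346, and 1137 without the filter, 134 at a mean FPKM of at least 5, 158 over protein-coding genes only, 921 with the replicate block, 993 with the block in the 6 libraries alone, 2166 with replicates 2 and 3 only and 977 with voom and the block. Leaving out each library gave 231 to 669 (590 without DMSO replicate 1 and 669 without Gilteritinib replicate 1). The block passed no named gene at an adjusted p under 0.05 except 5_8S_rRNA with voom (0.00094).

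The 15 named genes that changed sign had a difference smaller than its standard error in the fit reported. Median-ratio scaling gave 0.029 for *FLT3* and 0.028 for *MCL1*, quantile normalization -0.0078 for *CCNA2*, and voom with the block -0.010 for *ETV5*. Replicates 2 and 3 alone gave 0.12 for *PIM1*, 0.0010 for *PIM2*, -0.038 for *DUSP6*, -0.068 for *ETV5*, 0.097 for *CDKN1A*, -0.029 for *CDK2* and -0.068 for *CCNA2*. Leaving out each library gave -0.095 to 0.047 for *FLT3*, -0.85 to 0.66 for *PIM1*, -0.31 to 0.25 for *PIM2*, -0.14 to 0.44 for *CISH*, -0.20 to 0.27 for *DUSP6*, -0.26 to 0.19 for *ETV5*, -1.06 to 0.24 for *EGR1*, -0.076 to 0.32 for *MYC*, -0.44 to 0.21 for *CCND2*, -0.14 to 0.39 for *CCND3*, -0.56 to 0.089 for *CDKN1A*, -0.090 to 0.095 for *CDK2*, -0.11 to 0.085 for *CCNA2*, -0.063 to 0.036 for *MCL1* and -0.24 to 0.093 for *BCL2L11*. *JUND* stayed between -1.39 and -0.95. Of 216 alternative values of list medians, 156 moved by less than the SD of the 3 pair medians and 60 by more. The causes were not tested. With 3 libraries a group, an exact permutation test of a single gene cannot go below 0.1.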
